A study of Mus musculus with 4 samples.

Results

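Interleukins and the receptors that bind them were examined in ILC3s sorted from the large intestine of mice treated with α-DR3, an agonistic antibody (clone 4C12) against the TNF receptor family member DR3, or with PBS. The genes were chosen by name among those read here. Taken was each interleukin, interferon, TGF-β, colony stimulating factor, TNF receptor superfamily, activin receptor, BMP receptor, LIF or oncostatin M symbol except *Il22* and *Csf2rb*. By this rule 43 genes were found. Of these, 25 had a row among the 2179 genes of the deposited table. They were 9 ligands, 13 receptors, 2 soluble inhibitors (*Il1rn* and *Il18bp*) and 1 enzyme, *Il4i1*, which shares the prefix of the interleukins but encodes an amino acid oxidase. The other 18 genes, 7 ligands and 11 receptors, were matched by name in the part of the study's gene sheet used here and are not analysed here. They were the ligands *Csf1*, *Il10*, *Il11*, *Il12b*, *Il16*, *Il19* and *Tgfb1* and the receptors *Acvr1b*, *Acvrl1*, *Il12rb1*, *Il12rb2*, *Il13ra1*, *Il17ra*, *Il27ra*, *Il5ra*, *Il7r*, *Tnfrsf13b* and *Tnfrsf22*. *Csf2*, the gene of GM-CSF, is not analysed here.

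All mice were young adult Rag1-/- littermates with a GFP reporter for ILC3s, so both groups lacked *Rag1* and, with it, mature T and B cells, and both carried the reporter. The treated group received 1 µg of α-DR3 and the control group PBS, with no control antibody. In a separate experiment the paper saw no difference in ILC3 loss between control IgG and PBS, and used PBS afterwards. For the libraries, ILC3s (Lin-GFP+ cells) were sorted from lamina propria lymphocytes on day 3. Each group had 2 libraries of poly(A) RNA, each from the pooled cells of several mice. The table gives 1 mean FPKM per gene and group, which the authors computed over the duplicate libraries. FPKM is the number of sequenced fragments scaled to transcript length and to the fragments of the library, so levels of different genes can be set side by side. Values of single libraries are not used here, hence no SD, confidence interval or test computed here accompanies any value, and sequencing depth is unknown. A difference is therefore given as a ratio of the α-DR3 mean to the PBS mean, and its size was not set against the spread between libraries here. The one comparison with that spread is the authors' own, through which the table was filtered.

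Every one of the 2179 listed genes had passed a p-value of 0.05 in the authors' own comparison of the groups and had a mean of at least 1.005 FPKM in 1 group. Being listed was thus itself a result of the comparison. A gene with a PBS mean under 1 FPKM could be listed only if its α-DR3 mean was higher, and this applied to 9 of the 25 genes (5 ligands, 3 receptors and 1 inhibitor). No gene of the group had an α-DR3 mean under 1 FPKM. The genes lie on 11 chromosomes. In bulk RNA, fewer cells of a type and less RNA per cell cannot be told apart.

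Interleukins are small secreted proteins through which immune cells instruct each other. Most of them bind receptor chains that pair at the membrane and start JAK and STAT signaling, whereas IL-1 family and TNF family receptors act through adaptor proteins on NF-κB and MAP kinases. Intestinal ILC3s are known to respond to IL-1β and IL-23 from myeloid cells and to secrete IL-22, IL-17 cytokines, IL-2 and GM-CSF. DR3, the product of *Tnfrsf25*, binds TL1A and is itself a member of the receptor group.

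Sequences upstream of the start sites are shown for the ligands with the largest log2 rise and fall and the receptor with the largest rise. Each is the stretch of 250 bases before a RefSeq start site on GRCm38.p6, written 5′ to 3′ on the strand of the gene. Capitals mark matches to AP-1 (TGANTCA), STAT (TTCNNNGAA) or NF-κB motifs, searched on both strands. *Il1b* (chr2:129371140-129371389, minus strand) had the largest ratio among ligands and *Il2* (chr3:37125955-37126204, minus strand) was the only ligand with a lower mean in α-DR3. *Tnfrsf9* had the largest log2 difference among receptors and has 2 RefSeq start sites, of which the upstream one (chr4:150919905-150920154, plus strand) is shown first and the downstream one (chr4:150927749-150927998, plus strand) second. The second *Tnfrsf9* window and that of *Il6* (chr5:30012864-30013113, plus strand) were added after the search, because they alone among the members held matches to more than 1 of the 3 motifs. *Tnfrsf26* had the most negative log2 difference among receptors with over 5 FPKM.
Il1b: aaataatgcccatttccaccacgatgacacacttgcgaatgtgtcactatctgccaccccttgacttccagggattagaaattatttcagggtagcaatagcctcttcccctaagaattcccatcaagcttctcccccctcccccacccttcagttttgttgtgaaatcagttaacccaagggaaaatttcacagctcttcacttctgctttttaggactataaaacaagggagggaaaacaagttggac
Il2: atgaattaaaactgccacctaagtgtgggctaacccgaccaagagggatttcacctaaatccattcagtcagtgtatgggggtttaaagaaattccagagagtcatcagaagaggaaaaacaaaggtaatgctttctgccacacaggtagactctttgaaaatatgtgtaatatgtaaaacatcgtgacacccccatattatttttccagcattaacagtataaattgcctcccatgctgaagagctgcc
Tnfrsf9, upstream start: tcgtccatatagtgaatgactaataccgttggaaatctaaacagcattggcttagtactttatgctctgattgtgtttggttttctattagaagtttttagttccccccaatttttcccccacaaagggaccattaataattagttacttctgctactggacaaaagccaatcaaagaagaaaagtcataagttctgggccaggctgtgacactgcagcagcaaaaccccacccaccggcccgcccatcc
Tnfrsf9, downstream start: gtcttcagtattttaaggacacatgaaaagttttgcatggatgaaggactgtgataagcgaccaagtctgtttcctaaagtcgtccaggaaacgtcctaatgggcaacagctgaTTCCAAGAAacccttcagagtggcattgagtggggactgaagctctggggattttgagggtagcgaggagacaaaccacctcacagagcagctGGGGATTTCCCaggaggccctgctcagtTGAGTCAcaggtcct
Il6: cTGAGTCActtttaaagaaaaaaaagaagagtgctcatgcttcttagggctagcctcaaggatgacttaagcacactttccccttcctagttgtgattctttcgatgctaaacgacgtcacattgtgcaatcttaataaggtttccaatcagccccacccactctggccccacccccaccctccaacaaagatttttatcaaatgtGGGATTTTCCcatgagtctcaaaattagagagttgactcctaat

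The windows of *Il1b*, *Il2* and the upstream start of *Tnfrsf9* held none of the 3 motifs. In the downstream *Tnfrsf9* window, overlapping NF-κB matches covered the bases from -43 to -33 counted from the start site, an AP-1 match lay at -15 to -9 and a STAT match at -136 to -128. In the *Il6* window, the NF-κB match lay at -44 to -35 and the AP-1 match at -249 to -243. RefSeq windows were found for 21 of the 25 genes, with 30 start sites. An AP-1 match was present at 6 of the 30 start sites (20%), in *Il17rb*, *Il1a*, *Il1rn*, *Il6*, *Lif* and *Tnfrsf9*, and at 6.75% of all 32851 RefSeq windows. A STAT match was present at 3 of the 30 (10%, in *Il18r1*, *Tnfrsf25* and *Tnfrsf9*, against 7.02% of all windows) and an NF-κB match at 3 (10%, in *Ifngr2*, *Il6* and *Tnfrsf9*, against 3.9%). A match describes these letters only and not the binding of a factor.

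Genes whose group means differed by a factor of 1.5 or more, the fold limit of the study, were counted. Of the 25 genes 18 were higher and 5 were lower in α-DR3. Among all 2179 listed genes, 37.1% were higher and 38.4% lower by the same limit. For its own 1.5-fold genes the study also set an FDR limit and a mean over 5 FPKM in either group, not applied to these counts. With that mean, 11 of 17 genes were higher and 4 lower, against 517 and 625 of 1638 listed genes. The median difference on the scale of log2(FPKM + 1), α-DR3 minus PBS, was 0.79 for the 25 genes and 0.36 for all listed genes. All 9 genes with a PBS mean under 1 FPKM were among the 18. Their listing required them to be higher, though not by 1.5-fold. Of the genes with a mean over 1 FPKM in both groups, 9 of 16 (56.2%) were higher and 5 (31.2%) lower, against 31.9% and 39.9% of the 1889 listed genes with such means. After division of the α-DR3 means by the median ratio of all listed genes, 1.31, 14 of the 25 genes were higher and 6 lower, against 21.1% and 45.3% of all listed genes. With a fold limit of 2, 14 (56%) were higher and 1 (4%) lower, against 20.5% and 11.8% of all listed genes. Of the 9 ligands 8 were higher and 1 lower, while 7 of 13 receptors were higher and 4 lower. Of the higher genes, 5 ligands and 3 receptors had a PBS mean under 1 FPKM and could be listed only if higher. With means over 1 FPKM in both groups, 3 of 4 ligands were higher and 1 lower, and of 10 receptors 4 were higher and 4 lower, with a median log2 difference of -0.13 in place of 0.58. The groups of ligands and receptors were not tested against each other.

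**Figure D1:**
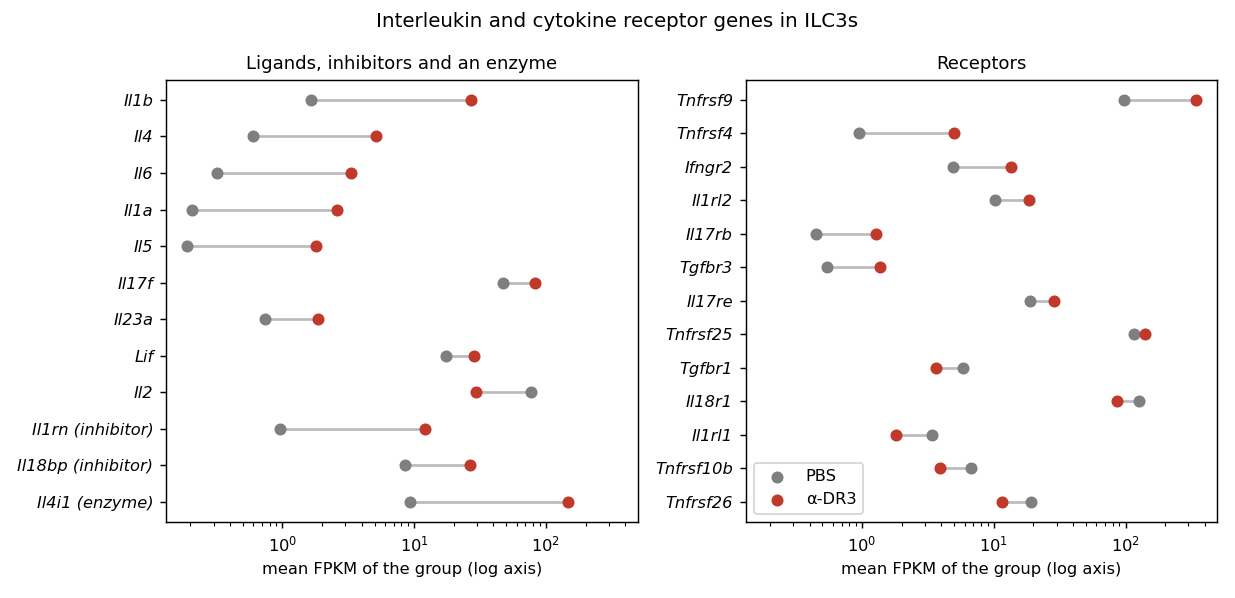
Mean FPKM of each gene in PBS (grey) and α-DR3 (red), on a log axis, for 12 ligands, inhibitors and the enzyme (left) and 13 receptors (right), each point being the authors' mean of 2 libraries. Genes are ordered by log2 difference within each role, and *Il2* is the only gene of the left panel with the red point to the left of the grey one.

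Among the 9 listed ligands, 3 genes made up most of the level in PBS, and the order of the genes differed after treatment. *Il2*, a growth factor for lymphocytes and regulatory T cells in particular (ENSMUSG00000027720.6; chromosome 3, 37120523 to 37125959 in GENCODE M21 on GRCm38), had 76.8 FPKM in PBS and 29.4 in α-DR3, a ratio of 0.383. It accounted for 52.9% of the summed FPKM of the 9 ligands in PBS and for 16.1% in α-DR3. *Il17f*, an IL-17 cytokine that acts on epithelium and stroma to recruit neutrophils (ENSMUSG00000041872.3; chromosome 1, 20777146 to 20790617), had 47.5 FPKM in PBS and 82.8 in α-DR3, a ratio of 1.74. It ranked second in PBS with 32.7% of the sum and first in α-DR3 with 45.5%. *Lif*, a gp130 cytokine (ENSMUSG00000034394.8; chromosome 11, 4257557 to 4272514), had 17.3 FPKM in PBS and 28.3 in α-DR3, a ratio of 1.64. Without an error for each mean, *Il2*, *Lif* and *Il1b*, which followed *Il17f* in α-DR3 at 29.4, 28.3 and 26.9 FPKM, cannot be put in order.

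The largest ratios among ligands belonged to the IL-1 cytokines. *Il1b*, the gene of a pyrogenic cytokine released by inflammasome activation (ENSMUSG00000027398.7; chromosome 2, 129364570 to 129371139), had 1.64 FPKM in PBS and 26.9 in α-DR3, a ratio of 16.4. Its share of the summed ligand FPKM was 1.13% in PBS and 14.7% in α-DR3. *Il1a*, which encodes the other agonist of the same receptor, had 0.205 and 2.59 FPKM, a ratio of 12.6. The genes lie 54.6 kb apart on chromosome 2, with 2 annotated genes between them. *Il1rn*, whose product occupies the IL-1 receptor without signaling (ENSMUSG00000026981.9; chromosome 2, 24336853 to 24351494), had 0.95 FPKM in PBS and 12.0 in α-DR3, a ratio of 12.6 as well. The FPKM of *Il1rn* per FPKM of *Il1a* and *Il1b* together was 0.515 in PBS and 0.408 in α-DR3.

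The remaining ligands stayed at low levels. *Il4* and *Il5*, type 2 cytokines whose genes lie 102 kb apart on chromosome 11, were higher by ratios of 8.62 and 9.55. The mean of *Il4* was 0.6 FPKM in PBS and 5.17 in α-DR3, and that of *Il5* was 0.19 and 1.81. *Il6*, a gp130 cytokine of the acute phase response, had 0.32 and 3.31 FPKM, a ratio of 10.3. *Il23a*, the IL-23 subunit p19 that myeloid cells typically produce, had 0.74 and 1.86 FPKM, a ratio of 2.51. For *Il1a*, *Il4*, *Il5*, *Il6* and *Il23a* the PBS mean was under 1 FPKM, and 12.6% to 34% of all listed genes had a lower α-DR3 mean than these genes. The ratios of genes this low rest on few fragments, and no counting error can be attached to them.

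Beside the ligands, *Il18bp*, a secreted decoy that neutralizes IL-18 (ENSMUSG00000070427.3; chromosome 7, 102014885 to 102018690), had 8.51 FPKM in PBS and 26.4 in α-DR3, a ratio of 3.1. *Il18r1*, the ligand-binding chain of the IL-18 receptor (ENSMUSG00000026070.8; chromosome 1, 40465552 to 40500854), had 127 FPKM in PBS, the most among the 13 listed receptors. In α-DR3 it had 85.8 FPKM, a ratio of 0.674. The level of the receptor per FPKM of the decoy was 14.9 in PBS and 3.25 in α-DR3. The ratio of *Il18r1* did not reach the limit for lower genes. *Il4i1*, an L-amino acid oxidase (ENSMUSG00000074141.5; chromosome 7, 44816387 to 44840809), had 9.29 FPKM in PBS and 146 in α-DR3. Its ratio of 15.8 combined with this level gave it a difference of 137 FPKM, and 94% of listed genes had a lower α-DR3 mean.

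The largest absolute difference among the receptors was that of *Tnfrsf9*, at 246 FPKM. *Tnfrsf9*, which encodes the costimulatory receptor 4-1BB (ENSMUSG00000028965.7; chromosome 4, 150914562 to 150946102), had 96.7 FPKM in PBS and 343 in α-DR3, a ratio of 3.55. It took 23.6% of the summed FPKM of the 13 listed receptors in PBS, after *Il18r1* and *Tnfrsf25*, and 52.1% in α-DR3, where it ranked first. *Tnfrsf4*, the gene of the receptor OX40, had 0.955 and 4.99 FPKM, a ratio of 5.22. *Tnfrsf25*, the gene of DR3 and thus of the target of the antibody (ENSMUSG00000024793.8; chromosome 4, 152115934 to 152120119), had 115 FPKM in PBS and 140 in α-DR3. Its ratio of 1.22 was the smallest difference of the 25 genes, and it turned to the other side (-0.09 on the log2 scale) when the α-DR3 means were divided by the median ratio of all listed genes, 1.31. These 3 genes lie on chromosome 4, with 1170 kb between *Tnfrsf9* and *Tnfrsf25* and 3890 kb between *Tnfrsf25* and *Tnfrsf4*.

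*Tnfrsf10b* and *Tnfrsf26* of the same superfamily were lower. *Tnfrsf10b*, the mouse receptor for the death ligand TRAIL, had 6.73 FPKM in PBS and 3.87 in α-DR3, a ratio of 0.575. *Tnfrsf26* (ENSMUSG00000045362.6; chromosome 7, 143607659 to 143628722) had 19.2 and 11.5 FPKM, a ratio of 0.598. Of the 5 TNF receptor superfamily genes listed, *Tnfrsf4* and *Tnfrsf9* were thus higher by at least 1.5-fold, *Tnfrsf10b* and *Tnfrsf26* lower, and *Tnfrsf25* neither.

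**Figure D2:**
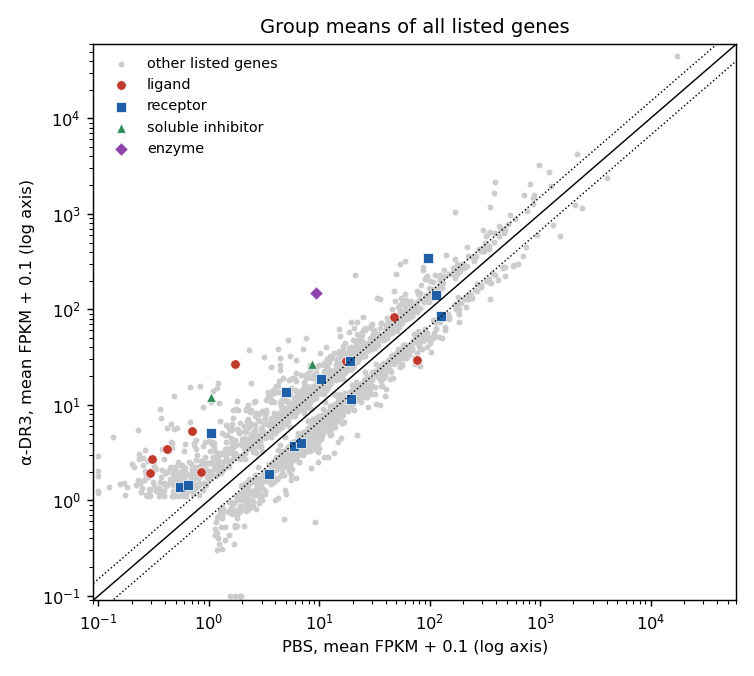
Mean FPKM plus 0.1 in PBS (x axis) and α-DR3 (y axis), both on log axes, for the 2179 listed genes, with ligands, receptors, soluble inhibitors and the enzyme marked. The solid line marks equal means and the dotted lines a ratio of 1.5 in either direction, and the empty band around the solid line reflects that genes without a difference were not listed. Among the marked genes, *Il4i1*, *Il1b* and *Il1rn* lie farthest above the lines and *Il2* farthest below.

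The IL-1 receptor family genes were neighbors on chromosome 1 but did not differ in the same direction. *Il1rl2*, the gene of the IL-36 receptor (ENSMUSG00000070942.3; chromosome 1, 40324610 to 40367562), had 10.3 FPKM in PBS and 18.5 in α-DR3, a ratio of 1.8. *Il1rl1*, which encodes the IL-33 receptor ST2 and is used as a marker of ILC2s (ENSMUSG00000026069.9; chromosome 1, 40429570 to 40465415), follows after 62 kb without an annotated gene between them. It had 3.4 FPKM in PBS and 1.8 in α-DR3, a ratio of 0.531. *Il18r1* begins 136 bases after the annotated end of *Il1rl1* on the same strand, and both had lower means in α-DR3.

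**Figure D3:**
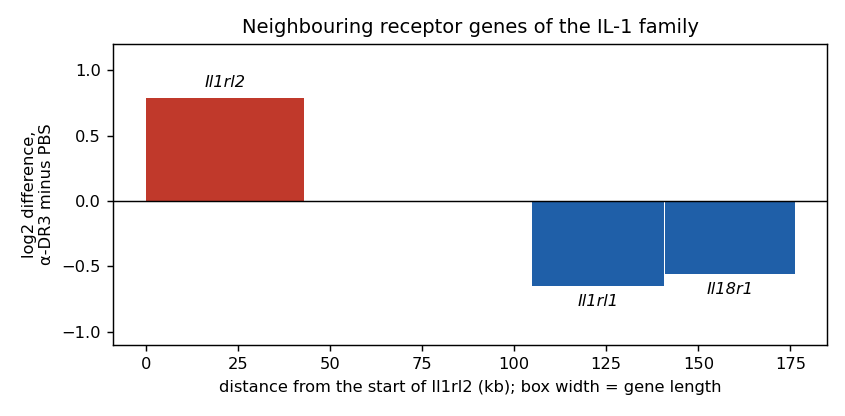
Log2 difference of log2(FPKM + 1), α-DR3 minus PBS, of 3 neighboring IL-1 receptor family genes against the distance from the start of *Il1rl2* in kb, with boxes as wide as the genes. *Il1rl2* lies above 0 at 0.79, and *Il1rl1* and *Il18r1* lie below it at -0.65 and -0.56.

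Receptors for IL-17 cytokines, interferon-γ and TGF-β made up the rest. *Il17re*, a chain of the IL-17C receptor, had 18.7 FPKM in PBS and 28.4 in α-DR3, a ratio of 1.52 that lay just inside the limit. *Il17rb*, a chain of the IL-25 receptor and, like *Il1rl1*, a gene of ILC2s, had 0.445 and 1.28 FPKM, a ratio of 2.88. *Ifngr2*, the signaling chain of the interferon-γ receptor (ENSMUSG00000022965.7; chromosome 16, 91547072 to 91565623), had 4.87 and 13.5 FPKM, a ratio of 2.77. The receptors for TGF-β differed in opposite directions. *Tgfbr1*, the kinase that phosphorylates SMAD proteins, had 5.82 and 3.63 FPKM, a ratio of 0.625, whereas *Tgfbr3*, the coreceptor betaglycan, had 0.545 and 1.36 FPKM, a ratio of 2.5.

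Signaling genes downstream of these receptors were taken from fixed lists, and none of them belongs to the 25. Of 25 genes for JAKs, STATs and their inhibitors, 10 were listed, of which 5 (50%) were higher by at least 1.5-fold and 1 (10%) was lower, against 37.1% and 38.4% of all listed genes. After division by the median ratio 0 were higher and 2 lower, where 21.1% and 45.3% of all listed genes were. With a fold limit of 2 the numbers were 0 and 1, where the shares of all listed genes were 20.5% and 11.8%. *Jak2*, which binds the signaling chain of the interferon-γ receptor, had 16.7 FPKM in PBS and 32.1 in α-DR3. *Cish*, an inhibitor induced by STAT5, had 77.7 and 144 FPKM. *Ptpn6*, the gene of the phosphatase SHP-1, was the lower one, with 107 and 49.6 FPKM and a ratio of 0.463. *Stat5a*, *Socs1* and *Socs3* were the other higher genes, with ratios of 1.77, 1.82 and 1.56.

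Of 32 genes of IL-1 receptor and TNF receptor signaling, 12 were listed, of which 5 (41.7%) were higher and 4 (33.3%) lower, near the 37.1% and 38.4% of all listed genes. After division by the median ratio 1 was higher and 4 were lower, and with a fold limit of 2 the numbers were 1 and 0, against 20.5% and 11.8% of all listed genes at that limit. *Traf3*, an adaptor that restrains the noncanonical NF-κB pathway, had 12.9 FPKM in PBS and 30.6 in α-DR3, a ratio of 2.37. *Relb*, an NF-κB subunit of that pathway, had 67.1 and 121 FPKM. *Traf1*, an adaptor of TNF receptors including 4-1BB, had 438 and 700 FPKM, a ratio of 1.6. *Birc3*, the ubiquitin ligase cIAP2, had 255 and 160 FPKM, a ratio of 0.628, and *Sigirr*, an inhibitory receptor of the IL-1 receptor family, had 22.1 and 13.8, a ratio of 0.621; the latter was named after its values were seen. Of 18 genes of TGF-β and activin signaling, 5 were listed, with 1 higher (20%) and 3 lower (60%), against 37.1% and 38.4% of all listed genes. With a fold limit of 2 the numbers were 1 and 0, against 20.5% and 11.8%. *Tgif1*, a corepressor of SMAD proteins, had 566 FPKM in PBS and 285 in α-DR3, and *Skil*, another SMAD corepressor, 115 and 63.8. *Eng*, a coreceptor for TGF-β family ligands, was the higher one, with 11.5 and 30.4 FPKM. The median log2 difference was 0.55 for the JAK and STAT list, 0.50 for the IL-1 and TNF receptor list and -0.62 for the TGF-β list, against 0.36 for all listed genes.

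**Figure D4:**
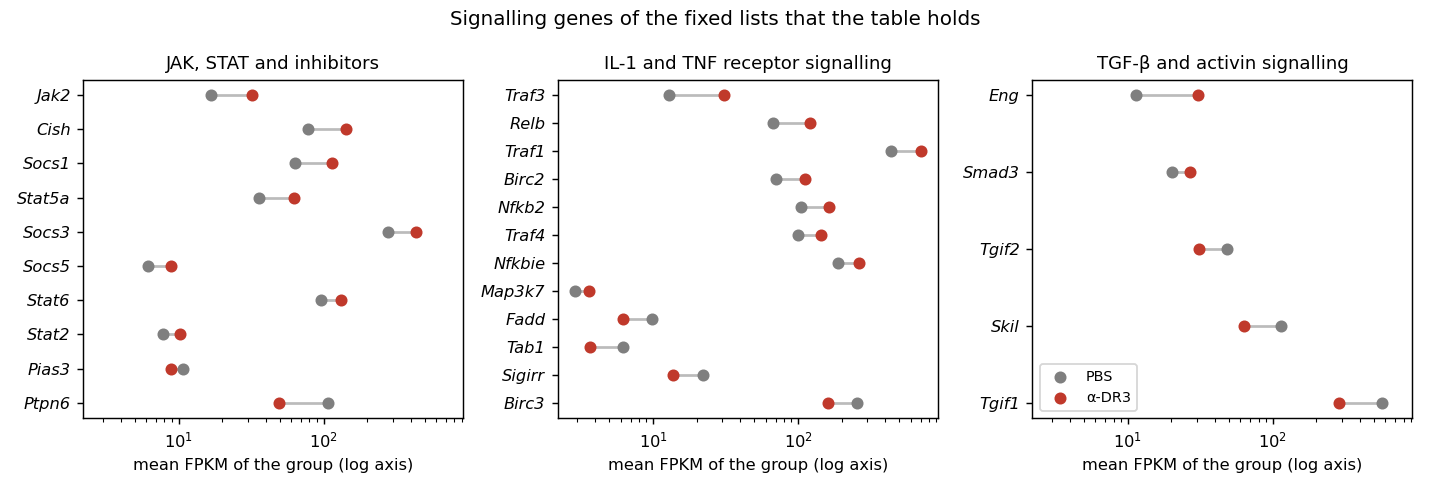
Mean FPKM in PBS (grey) and α-DR3 (red), on log axes, of the listed genes from 3 fixed lists of signaling genes, each point being the authors' mean of 2 libraries. From left to right the panels hold 10, 12 and 5 genes, and *Ptpn6* and *Tgif1* show the largest shifts to the left.

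Markers of the sorted cells and of other cell types were set beside these results. Of 8 ILC3 markers 3 were listed, of which 1 (33.3%) was higher by at least 1.5-fold, against 37.1% of all listed genes. The other 2 were neither higher nor lower. *Ccr6*, a marker of lymphoid tissue inducer cells among ILC3s, was the higher one, with 29.4 FPKM in PBS and 68.3 in α-DR3. *Tox*, a regulator of ILC development, had 51.2 and 38.4 FPKM, and *Ahr*, the aryl hydrocarbon receptor on which intestinal ILC3s depend, had 10.7 and 16.0. Of 18 markers of myeloid and dendritic cells 7 were listed. All 7 were higher by at least 1.5-fold, against 37.1% of all listed genes. Their summed level was 51.7 FPKM in PBS and 128 in α-DR3. *Zbtb46*, a transcription factor of dendritic cells, held most of the PBS sum with 42.3 and 71.4 FPKM, and without it the sum was 9.45 and 56.7. *C1qa*, *C1qb*, *C1qc* and *Cd14*, 4 of the 7, had a PBS mean under 1 FPKM and so could be listed only if higher. *Lyz2* had 4.08 and 37.9 FPKM, *Cd14* 0.64 and 3.91, and *C1qb* 0.67 and 4.17, although cells bearing CD11b or CD11c belonged to the lineage gate that the sort removed. Myeloid cells are known sources of *Il1b*, *Il1a*, *Il1rn*, *Il6* and *Il23a*, and the part of myeloid RNA in the higher levels of these genes was not tested. *Csf1r*, *Itgam*, *Itgax* and *Adgre1* were not listed and are not analysed here. Of 9 markers of ILC2s 4 were listed, with a sum of 8.41 FPKM in PBS and 15.8 in α-DR3. The *Il5* and *Il17rb* levels given above are part of this sum, with *Klrg1* at 4.38 and 10.9 FPKM and *Il1rl1* on the other side.

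Of 13 markers of eosinophils, basophils and mast cells, which are known to express *Il4* and *Il6*, *Mcpt8* alone was listed, with 0.375 FPKM in PBS and 1.49 in α-DR3. Of 7 neutrophil markers, *Retnlg* was listed at 0 in PBS and at 1.16 FPKM in α-DR3. With PBS means under 1 FPKM, both could be listed only if higher. Of 7 fibroblast markers 5 were listed, with a sum of 6.58 and 16.6 FPKM, and all 5 were higher by at least 1.5-fold, 3 of them with a PBS mean under 1 FPKM. With a pseudocount of 1 FPKM in the ratio, 3 of the 5 were higher. Among all listed genes 37.1% were higher. None of 6 T cell markers was listed, and of 6 B cell markers *Cd79b* was, with 10.9 and 27.2 FPKM. Of 7 epithelial markers *Lgals4* was listed, with 12.4 FPKM in PBS and 5.28 in α-DR3. Of 9 markers of ILC1s and NK cells 6 were listed, 3 (50%) higher and 3 (50%) lower, against 37.1% and 38.4% of all listed genes. *Gzma*, *Prf1* and *Gzmb* were higher, and *Tbx21*, *Klrb1c* and *Ncr1* lower. *Ncr1* encodes NKp46, by which the paper also defined NCR+ ILC3s, so it marks a subset of the sorted cells as well. Its mean was 460 FPKM in PBS and 279 in α-DR3. The part that these cells or transcripts took in the levels of the interleukin and receptor genes was not tested.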

How the data were processed

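Libraries of ILC3 RNA, 2 from PBS-treated and 2 from α-DR3-treated mice, were grouped by their labels. According to the paper's methods and the submitters' processing notes, paired-end reads were mapped to GRCm38.p5 by STAR 2.5, quantified by RSEM 1.2 on GENCODE M16 and compared with edgeR 3.18.1. The deposited table holds the FPKM mean the authors computed for each group, with no column for a single library. Its header calls the control wt, which is taken as PBS, the only other group. Its remaining columns hold lengths in bases and the authors' own fold changes and test results, which were not used, except that the deposited p-value was read to test the filter of the table: all 2179 were under 0.05. FPKM were not rescaled between libraries, so a very abundant transcript can shift all others.

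Group means were compared by their ratio, with a limit of 1.5, and by differences of log2(FPKM + 1). The planned limma test needed values of each library, which are not used here, and was not made. Members and lists were chosen with earlier results of these data known. Every listed member was named, and of the other lists up to 4 genes with the largest difference and the remaining genes of short counts. Coordinates are from GENCODE M21 on GRCm38, which held 25 of 25 identifiers, and start sites from RefSeq on GRCm38.p6. Some genes of the fixed lists are not reported here and were left out of their counts. Depth is unknown. The ratio, the calls and the motif search were tested on simulated data. Alternatives covered the fold limit, pseudocounts, filters on FPKM and division by the median ratio. The filter of over 1 FPKM in both groups and the sum of myeloid markers without *Zbtb46* were added after seeing the data. Python 3.11.15, pandas 2.3.3, numpy 2.4.6 and matplotlib 3.10.9 were used.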

Additional observations from a re-analysis of the deposited data

How the results depend on the processing

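No paired analysis was possible because the table used here gives a mean of each group, and values of single libraries are not used here. For the same reason no replicate was left out. The paper states that its supplementary data show FPKM of the duplicate samples, so both limits come from the input chosen here. After division by the median ratio of all listed genes, a shift of 0.39 on the log2 scale, 24 of 25 log2 differences of single genes kept their sign, and the exception was *Tnfrsf25* at -0.09. A pseudocount added to both means cannot change a sign. With a fold limit of 2, the members that were lower numbered 1 in place of 5 and the receptors 0 in place of 4, while the lower share of all listed genes went from 38.4% to 11.8%, and 14 members were higher in place of 18, against a change from 37.1% to 20.5%. With a mean over 5 FPKM in either group, 11 of 17 members, 4 of 5 ligands and 4 of 9 receptors were higher. Without this filter they were 18 of 25, 8 of 9 and 7 of 13. Of all listed genes, 517 of 1638 were higher with the filter, and 808 of 2179 without it. With a mean over 1 FPKM in both groups, 9 of 16 members, 3 of 4 ligands and 4 of 10 receptors were higher, against 31.9% of all listed genes. The median log2 difference was then 0.73 for ligands and -0.13 for receptors, so the median of the receptors changed sign with the filter. The median of all members moved from 0.79 to 1.22 with a pseudocount of 0.1 and to 0.45 after division by the median ratio. That of ligands moved from 1.24 to 2.72 with a pseudocount of 0.1, to 0.58 with 5 and to 0.79 with the filter of 5 FPKM. That of receptors moved from 0.58 to 0.21 both with a pseudocount of 5 and after division by the median ratio, and to 0.29 with the filter of 5 FPKM. Of 78 counts of signaling lists, marker lists and all listed genes that were above 0 as reported, recomputed under the planned and added alternatives, 59 stayed within 1.5 times. As depth is unknown and values of single libraries are not used here, no error stands beside any ratio, and 9 members had a PBS mean under 1 FPKM.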
